A study of Homo sapiens with 6 samples.

Results

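The DNAJ genes, also called the HSP40 or J-protein family, were followed in RNA-seq of HEK 293FT cells with and without CTRB1. The members are the 45 genes, of 20345 protein-coding genes in the deposited table, whose symbol begins with DNAJA, DNAJB or DNAJC and a number: 4 of class A, 12 of class B and 29 of class C. The first group of 3 libraries comes from cells titled HEK 293FTGFP-CTRB1 (CTRB1 cells), and the second, also of 3 libraries, from cells titled HEK 293FTGFP and marked Vec (GFP cells). HEK 293FT is a line of human embryonic kidney origin with the large T antigen of SV40, the titles name GFP, green fluorescent protein, in both groups, and CTRB1 encodes chymotrypsinogen B1, the precursor of a digestive protease. The labels do not say how CTRB1 was introduced, whether each line is 1 clone or a pool, or whether the libraries of a group came from separate cultures, and p-values rest on the spread among libraries alone, which may be technical.

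J proteins are the co-chaperones that bring client proteins to HSP70 and switch on its ATPase. They do so through the J domain, a short helical bundle with an invariant histidine-proline-aspartate motif. Class A members have the J domain, a glycine-rich stretch and a zinc-binding region, class B members lack the zinc-binding region, and class C groups all others, many of them tied to 1 organelle or 1 substrate. In heat-shocked cells the factor HSF1 switches on several class A and B genes together with the inducible HSP70 genes, by binding heat shock elements, which are inverted repeats of the unit GAA.

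CTRB1 itself was counted 22749, 22161 and 19345 times in the CTRB1 libraries, against 1, 0 and 5 times in the GFP libraries. Total counts were 27514767 to 32522018 in the CTRB1 libraries and 52571457 to 159616285 in the GFP libraries, so every GFP library was deeper. Values between groups are given as CPM, counts scaled to a common library size with TMM factors, and levels between genes as the authors' TPM, which accounts for transcript length. Of 4 HEK293 marker genes in the table, NEFM was at 28.9 TPM in CTRB1 cells and 26.5 TPM in GFP cells, and LHX1, PAX2 and CDH2 lay between 1.55 and 4.27 TPM. Both PAX2 and NEFM were higher in CTRB1 cells (log2 changes 0.39 and 0.12; edgeR adjusted p = 0.0101 and 0.0257), and so was COL1A1 (0.23; edgeR adjusted p = 0.0331). The blood marker PTPRC and the keratinocyte markers KRT5 and KRT14 lay at or below 0.0141 TPM in both groups, while the fibroblast markers COL1A1 and COL3A1 were at 14.6 and 1.86 TPM in CTRB1 cells and 13.5 and 1.54 TPM in GFP cells. The part of these markers in the results was not tested.

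The DNAJ genes changed by modest amounts and in both directions. The cytosolic co-chaperone genes DNAJA1 and DNAJB1 fell most, to 1.36-fold and 1.28-fold below GFP cells, and DNAJC2, of the ribosome-associated chaperone complex, fell 1.21-fold. DNAJC1, of the endoplasmic reticulum membrane, rose 1.28-fold. The luminal genes of the endoplasmic reticulum, DNAJB9, DNAJB11, DNAJC3 and DNAJC10, did not pass the main test. DNAJC10 was near the threshold (edgeR adjusted p = 0.058) and was called higher under 6 of its 14 alternative settings, and DNAJB9 under 1. Of the 45 genes, 38 passed the filter, an FPKM of 1 or more in no fewer than 3 of the 6 libraries, and all 38 did so in every library of both groups. By edgeR's quasi-likelihood test with Benjamini-Hochberg adjustment over 11961 genes, 17 of the 38 were called at 0.05, against 37.4% of all genes tested. In CTRB1 cells 4 members were higher, against 18.6% of all genes, and 13 were lower (34.2% of the 38), against 18.9% of all genes. The higher count was 2 without GFP replicate 2 or without CTRB1 replicate 3, and 9 without CTRB1 replicate 2. The groups did not overlap for 6 members that were higher and 14 that were lower, where 25.0% of all genes did so in each direction. The median log2 change of the 38 was 0.023 (range -0.44 to 0.38), and that of all genes tested was 0.003.

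How often a gene was called lower varied with its level. Among the 25 members with a mean TPM of at least 20, a split chosen after the values were seen, 12 were lower and 3 higher, that is 48.0% and 12.0%, while among the 6750 genes of the whole table at that level 27.4% were lower and 18.6% higher. Among the 13 members under 20 TPM 1 was lower and 1 higher, each 7.69%, while 7.85% of the 5211 genes at that level were lower and 18.6% higher. The difference between the members and other genes was not tested.

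**Figure D1:**
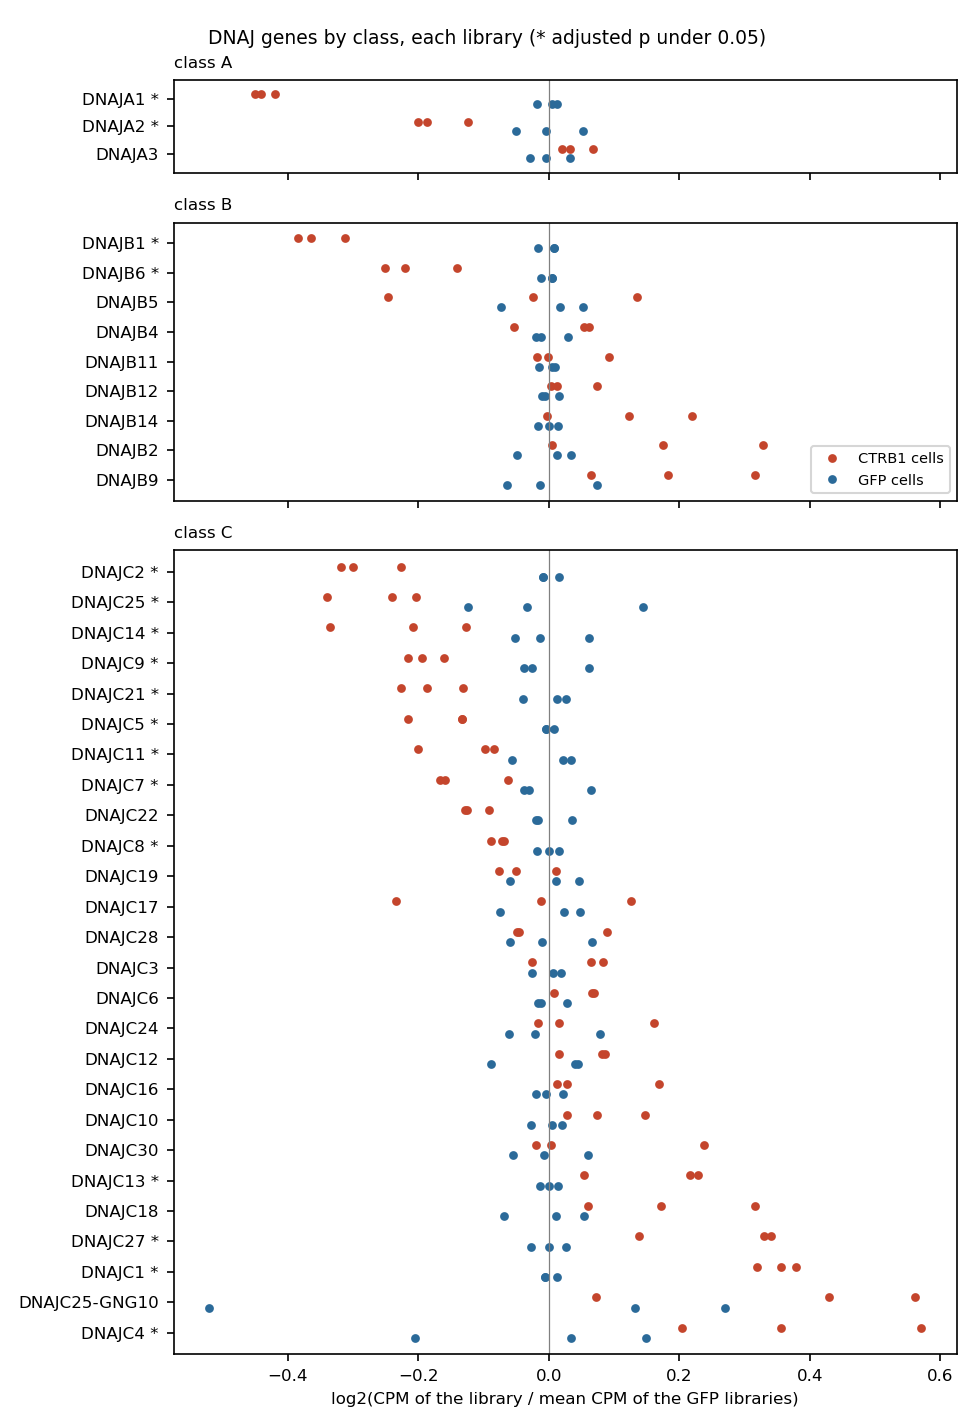
Each row is 1 of the 38 DNAJ genes that passed the filter, grouped by class and sorted by its change; points are the 3 CTRB1 libraries and the 3 GFP libraries on the axis of log2 of CPM over the mean CPM of the GFP libraries, and an asterisk marks an edgeR adjusted p under 0.05. The CTRB1 points of DNAJA1 and DNAJB1 lie left of all their GFP points, those of DNAJC1 lie right of them, and those of DNAJC3 and DNAJB11 overlap with GFP.

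Class A holds the cytosolic genes DNAJA1, DNAJA2 and DNAJA4 and the mitochondrial DNAJA3. DNAJA1 (ENSG00000086061; chromosome 9, positions 33025209 to 33039905 by the table, with no build named for it) had 280, 286 and 282 CPM in the CTRB1 libraries and 386, 378 and 384 CPM in the GFP libraries. The groups lay far apart relative to their spread, 283 ± 3.06 CPM in CTRB1 cells and 383 ± 4.13 CPM in GFP cells (SD, n = 3 each). The log2 change of DNAJA1 was -0.44 ± 0.0223 (SE), with an edgeR adjusted p of 2.97e-07, the smallest p among the members. DNAJA2 had 111, 116 and 110 CPM in the CTRB1 libraries and 126, 122 and 131 CPM in the GFP libraries. All 3 CTRB1 libraries of DNAJA2 were lower than all GFP libraries, by less than for DNAJA1 (log2 change -0.17 ± 0.0327, SE; edgeR adjusted p = 0.00233).

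DNAJA3, the mitochondrial class A gene, was not called. It had 120, 123 and 119 CPM in the CTRB1 libraries and 115, 120 and 117 CPM in the GFP libraries, which overlap (log2 change 0.04 ± 0.0264, SE; edgeR adjusted p = 0.271). DNAJA4, a cytosolic gene, was near the limit of detection at 1.39, 1.05 and 0.948 CPM in the CTRB1 libraries and 0.9, 0.71 and 0.87 CPM in the GFP libraries, and did not pass the filter. Every CTRB1 value of DNAJA4 was above every GFP value, but a fit without the filter gave an edgeR adjusted p of 0.236 (log2 change 0.44 ± 0.248, SE). So of only 3 class A genes tested 2 were lower and 0 higher, with a median log2 change of -0.169, where 18.9% of all genes were lower. GENCODE v29 lists 6 pseudogenes named after DNAJA1, and the handling of reads shared with such copies is not stated.

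The summed CPM of class A was 517 ± 7.8 in CTRB1 cells and 627 ± 6.14 in GFP cells (SD, n = 3 each), a ratio of 0.823. The sum fell by 111 CPM, and DNAJA1 alone fell by 100 CPM. Without it the sum was 234 ± 5.08 CPM in CTRB1 cells and 244 ± 3.54 CPM in GFP cells (SD, n = 3 each). In RNA from whole cultures, fewer cells with a transcript and less of it per cell cannot be told apart.

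Of 9 tested class B genes 2 were lower (22.2%), 0 were higher and 7 were not called. Over all genes 18.9% were lower and 18.6% higher. DNAJB1, the HSP40 gene itself (ENSG00000132002; chromosome 19, positions 14625582 to 14640582 in the table), had 96.1, 92.7 and 91.4 CPM in the CTRB1 libraries and 120, 120 and 118 CPM in the GFP libraries. No CTRB1 library reached the lowest GFP library. Its log2 change was -0.35 ± 0.0269 (SE; edgeR adjusted p = 5.32e-06). The gene overlaps TECR in the table, which had a log2 change of -0.15 (edgeR adjusted p = 0.00133), and without a stated use of strand in counting, reads of overlapping genes are not safely told apart.

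DNAJB6, known for keeping polyglutamine proteins from aggregating, was lower in counts but not in FPKM. It was below the size set for full values and is given in full because of this, a choice made after the values were seen. It had 142, 150 and 139 CPM in the CTRB1 libraries and 164, 166 and 166 CPM in the GFP libraries (log2 change -0.21 ± 0.0281, SE; edgeR adjusted p = 0.000262). The groups do not overlap on this scale. In the authors' TPM, DNAJB6 was at 116 ± 7.74 in CTRB1 cells and 105 ± 15.9 in GFP cells (SD, n = 3 each), and limma on log2(FPKM + 1) gave a log2 change of 0.15 with an adjusted p of 0.299. The number of counts per unit of FPKM, relative to the library's median over genes, was 0.703, 0.826 and 0.742 in the CTRB1 libraries, against 0.96, 0.857 and 1.15 in the GFP libraries for DNAJB6. This is a spread of 1.64-fold, where a fixed gene length would give 1 value in every library. Of 30 members with over 500 counts in every library, 10 had a spread above 1.1-fold (33.3%), and of all 8819 such genes 21% did. The source of the spread was not tested.

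The other class B genes that passed the filter overlapped between the groups. DNAJB11, a soluble co-chaperone of the endoplasmic reticulum, had 91.2, 92.3 and 98.5 CPM in the CTRB1 libraries and 92.7, 91.4 and 93 CPM in the GFP libraries (log2 change 0.02 ± 0.0317, SE; edgeR adjusted p = 0.573). DNAJB12, of its membrane, had 61, 63.6 and 60.6 CPM in the CTRB1 libraries and 60, 61.1 and 60.2 CPM in the GFP libraries (edgeR adjusted p = 0.492). DNAJB11 and DNAJB12 are the most abundant class B genes that were not called. DNAJB9, a co-chaperone of the unfolded protein response, averaged 16.6 ± 1.46 CPM in CTRB1 cells and 14.5 ± 0.698 CPM in GFP cells (SD, n = 3 each; log2 change 0.19, edgeR adjusted p = 0.0884). DNAJB2, a ubiquitin-binding member, and DNAJB14, of the endoplasmic reticulum membrane, had log2 changes of 0.18 and 0.12 (adjusted p = 0.0956 and 0.0958, edgeR). DNAJB4 and DNAJB5, cytosolic relatives of DNAJB1, had log2 changes of 0.02 and -0.03 (adjusted p = 0.738 and 0.827, edgeR). Without CTRB1 replicate 2, DNAJB2, DNAJB9 and DNAJB14 passed as higher (edgeR adjusted p = 0.015, 0.0312 and 0.0117).

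Class B had a median log2 change of 0.024 over 9 genes. Its summed CPM was 532 ± 4.09 in CTRB1 cells and 568 ± 2.42 in GFP cells (SD, n = 3 each), a ratio of 0.936. In summed TPM the ratio was 0.998, at 392 ± 4.49 TPM in CTRB1 cells and 393 ± 18.7 TPM in GFP cells. Without DNAJB6 the ratios were 0.964 in CPM and 0.961 in TPM, and without DNAJB1 they were 0.977 in CPM and 1.08 in TPM. The differences of DNAJB1 and DNAJB6 were -26.1 and -22.3 CPM, where that of the class sum was -36.6 CPM.

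Stretches of 4 promoters are printed, chosen after the values were seen from 8 members with a match to the heat shock element: those of DNAJA1, DNAJB1 and DNAJB6, which were called lower, and of DNAJA4, which holds the same pair of matches as DNAJB1. They are RefSeq sequences on GRCh38.p14, written 5′ to 3′ on the gene's strand, with the matches in capitals. The printed DNAJB1 stretch lies outside the positions given for that gene above, so printed and deposited positions cannot be compared. The motif searched was GAA and TTC in either order with any 2 bases between them, which reads the same on the other strand, and overlapping matches run together in capitals.
DNAJB1, chr19:14518398-14518487, minus strand: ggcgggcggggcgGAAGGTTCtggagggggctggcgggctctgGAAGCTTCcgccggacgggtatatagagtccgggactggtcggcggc
DNAJB6, chr7:157336859-157336918, plus strand: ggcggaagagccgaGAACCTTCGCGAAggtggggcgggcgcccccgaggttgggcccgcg
DNAJA1, chr9:33025063-33025092, plus strand: aaaagggctccaGAAGATTCcacgagcgcc
DNAJA1, chr9:33025261-33025290, plus strand: gcggcgcgccgggcgGAACTTTCCAGAAcg
DNAJA4, chr15:78264462-78264531, plus strand: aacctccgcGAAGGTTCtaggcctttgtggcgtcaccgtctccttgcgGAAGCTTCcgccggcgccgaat

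The DNAJB1 stretch ends at the base before a RefSeq start and holds separate matches that begin 77 and 47 bases before it, and a window at another RefSeq start of DNAJB1 holds a match at base 2 of the transcript. The DNAJA4 stretch holds the same pair of 8-letter matches, 91 and 52 bases before a start. DNAJA4 did not pass the expression filter, and its CTRB1 values lay above its GFP values. Its log2 change without the filter was 0.44 (edgeR adjusted p = 0.236). DNAJB6 and DNAJA1 hold the longer form of 3 alternating units, each pair again 2 bases apart, beginning 131 bases before the start in DNAJB6 and at base 4 of the transcript in DNAJA1, while the other DNAJA1 match begins 198 bases before its start.

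Promoters from 250 bases before to 50 after the start were found for 41 of the 45 members. Of these, 8 held the motif of 2 units (19.5%), against 16.2% of all 27305 genes with a RefSeq promoter and 13.4% of those tested here. The other 4 were DNAJB4 and DNAJC6, which were tested and not called (log2 changes 0.02 and 0.05), and DNAJB7 and DNAJC15, which did not pass the expression filter. The longer form was found in 2 members (4.88%), against 0.608% of all genes. Each share of all genes in this paragraph is over those 27305 genes. Of the 13 genes called lower 3 held the shorter motif, and of the 3 called higher with a promoter none did. DNAJC1, also called higher, had no promoter among those found. With so few genes, lower and higher members cannot be compared for the motif. In the 250 bases before the start, without the transcribed part, 7 members held the shorter motif (17.1%, against 14.0% of all genes) and 1 the longer. Among the members, the motif of ATF4 and C/EBP factors (TGATG, any base, AA) was found in DNAJA4 alone, against 4.46% of all genes, and that of the unfolded protein response (TGACG followed by TGG) in DNAJC10 alone, against 0.927%. No member held the endoplasmic reticulum stress element (CCAAT, any 9 bases, CCACG), which 0.0916% of all genes did. At so low a share, the lack of a match among 41 members cannot set them apart from other genes. Both strands were searched, and a match to letters does not show that a factor binds.

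Class C held 26 tested genes, of which 9 were lower, 4 higher and 13 not called, against 18.9% lower and 18.6% higher over all genes. The higher count was 2 without GFP replicate 2 or without CTRB1 replicate 3. The median log2 change was 0.020, and it was -0.030 over genes with a mean FPKM of at least 5 and -0.027 with limma on log2(FPKM + 1). The genes that fell include those tied to ribosomes, splicing and chromatin. DNAJC2, which with HSPA14 forms the ribosome-associated complex that meets new polypeptides (ENSG00000105821; chromosome 7, positions 102952921 to 102985320 in the table), had 97.6, 104 and 98.8 CPM in the CTRB1 libraries and 121, 121 and 123 CPM in the GFP libraries. The groups of DNAJC2 did not overlap (log2 change -0.28 ± 0.0291, SE; edgeR adjusted p = 4.71e-05). DNAJC9, a histone chaperone, averaged 99.9 ± 1.84 CPM in CTRB1 cells and 114 ± 4.76 CPM in GFP cells (SD, n = 3 each; edgeR adjusted p = 0.00125). DNAJC21, of large ribosomal subunit assembly, averaged 64.7 ± 2.14 CPM in CTRB1 cells and 73.4 ± 1.74 CPM in GFP cells (SD, n = 3 each; edgeR adjusted p = 0.00211). DNAJC8, of the spliceosome, was lower by the smallest amount of all called members, at 365 ± 2.85 CPM in CTRB1 cells and 385 ± 4.48 CPM in GFP cells (SD, n = 3 each; log2 change -0.08, edgeR adjusted p = 0.0191). DNAJC8 lost its call without GFP replicate 1 or GFP replicate 2 (edgeR adjusted p = 0.0792 and 0.0713).

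Of the 6 genes of the nuclear, ribosomal and RNA-related list, these 4 were thus lower and 0 higher, with a median log2 change of -0.127, where 18.9% of all genes, and 27.4% of those of at least 20 TPM, were lower. The other members, DNAJC17, of splicing, and DNAJC24, of diphthamide synthesis, were at -0.03 and 0.05 on the log2 scale, with edgeR adjusted p of 0.834 and 0.518. DNAJC2, DNAJC8 and DNAJC9 overlap other genes of the table. Among the partners in those overlaps, PMPCB and FAM149B1 had log2 changes of 0.07 and 0.11, and PSMC2 of -0.08.

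DNAJC7, a tetratricopeptide co-chaperone that also meets HSP90, and DNAJC5, the cysteine string protein of secretory vesicles, were lower as well. DNAJC7 averaged 164 ± 6.78 CPM in CTRB1 cells and 180 ± 7.2 CPM in GFP cells (SD, n = 3 each; log2 change -0.13, edgeR adjusted p = 0.0174). It overlaps NKIRAS2 and CNP, which had log2 changes of -0.18 and -0.21, and it lost its call without GFP replicate 1, CTRB1 replicate 2 or CTRB1 replicate 3 (edgeR adjusted p = 0.0668, 0.0551 and 0.066). DNAJC5 averaged 105 ± 3.36 CPM in CTRB1 cells and 117 ± 0.479 CPM in GFP cells (SD, n = 3 each; log2 change -0.17, edgeR adjusted p = 0.000967). DNAJC14, of the endoplasmic reticulum membrane, and DNAJC11, of mitochondria, were lower by log2 changes of -0.22 and -0.13 (adjusted p = 0.00919 and 0.0156, edgeR). DNAJC14 overlaps RP11-762I7.5 over 6587 bases, and also ORMDL2, which had log2 changes of 0.23 and -0.03 and were not called. DNAJC11 overlaps THAP3, which was not called either (log2 change -0.17). Of the 17 called members, 9 overlap another gene of the table. The call of DNAJC11 was lost without GFP replicate 1, GFP replicate 3 or CTRB1 replicate 3 (edgeR adjusted p = 0.0586, 0.0614 and 0.0573).

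DNAJC25 and the readthrough gene DNAJC25-GNG10 share exons, and how counting split their reads is uncertain. DNAJC25 had 21.1, 22.6 and 23.2 CPM in the CTRB1 libraries and 24.5, 29.5 and 26.1 CPM in the GFP libraries. The CTRB1 values of DNAJC25 were all below the GFP values (log2 change -0.26 ± 0.0719, SE; edgeR adjusted p = 0.0149), but the call was lost without GFP replicate 2 or CTRB1 replicate 1 (edgeR adjusted p = 0.073 and 0.0559). DNAJC25-GNG10 overlapped between the groups, at 9.2 ± 1.56 CPM in CTRB1 cells and 7.11 ± 1.91 CPM in GFP cells (SD, n = 3 each; log2 change 0.36, edgeR adjusted p = 0.152). GNG10 itself was lower (log2 change -0.20, edgeR adjusted p = 0.0188). Without this pair of members, 12 genes of 36 were lower (33.3%) and 4 higher (11.1%), against 18.9% and 18.6% of all genes.

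The 4 genes called higher are all of class C, which holds 26 of the 38 tested genes. They are 15.4% of those 26, where 18.6% of all genes were higher. Without CTRB1 replicate 2, 3 genes of class B were called higher as well. DNAJC1, a membrane protein of the endoplasmic reticulum that binds ribosomes (ENSG00000136770; chromosome 10, positions 22045466 to 22292698 in the table), had 39.1, 38.1 and 39.7 CPM in the CTRB1 libraries and 30.4, 30.4 and 30.8 CPM in the GFP libraries. Every CTRB1 library was above every GFP library (log2 change 0.35 ± 0.0419, SE; edgeR adjusted p = 0.000118). DNAJC4 had 16.2, 18 and 20.9 CPM in the CTRB1 libraries and 14.4, 12.2 and 15.6 CPM in the GFP libraries. The groups of DNAJC4 nearly touch, and its SE was the largest among the called members (log2 change 0.38 ± 0.111, SE; edgeR adjusted p = 0.0211). Its call was lost without GFP replicate 2 or CTRB1 replicate 3 (edgeR adjusted p = 0.0801 and 0.082). DNAJC4 overlaps NUDT22, which had a log2 change of -0.12 (edgeR adjusted p = 0.171).

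DNAJC27, which joins a small GTPase to a J domain, had 13.7, 12 and 13.8 CPM in the CTRB1 libraries and 11.1, 10.7 and 10.9 CPM in the GFP libraries. Its groups did not overlap (log2 change 0.27 ± 0.0819, SE; edgeR adjusted p = 0.0229), and the call was lost without GFP replicate 2 or 3 or CTRB1 replicate 1 or 3 (edgeR adjusted p = 0.0513 to 0.0795) and without the expression filter (edgeR adjusted p = 0.0564). DNAJC13, an endosomal protein of receptor sorting, averaged 118 ± 7.61 CPM in CTRB1 cells and 105 ± 0.864 CPM in GFP cells (SD, n = 3 each; log2 change 0.17, edgeR adjusted p = 0.00694). Of the 4, DNAJC1 alone was called under all 14 alternatives.

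The class C genes that were not called include the abundant DNAJC12 and DNAJC19. DNAJC12, a co-chaperone of aromatic amino acid hydroxylases, had 30.1, 31.5 and 31.6 CPM in the CTRB1 libraries and 30.7, 28 and 30.6 CPM in the GFP libraries (edgeR adjusted p = 0.396). DNAJC19, of mitochondrial protein import, had 27.7, 27.2 and 28.9 CPM in the CTRB1 libraries and 27.5, 29.6 and 28.9 CPM in the GFP libraries (edgeR adjusted p = 0.544). Both overlap between the groups. GENCODE v29 lists 9 pseudogenes named after DNAJC19. DNAJC6, the clathrin-uncoating auxilin, DNAJC30, of mitochondria, and DNAJC16, DNAJC22 and DNAJC28 had log2 changes between -0.12 and 0.09, with edgeR adjusted p of 0.402, 0.466, 0.323, 0.311 and 0.992. Among these 5, the groups of DNAJC22 did not overlap (7.01 ± 0.102 CPM in CTRB1 cells and 7.59 ± 0.159 CPM in GFP cells; SD, n = 3 each).

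Summed over class C, the libraries held 1762 ± 1.57 CPM in CTRB1 cells and 1825 ± 9.6 CPM in GFP cells (SD, n = 3 each), a ratio of 0.966. The whole family summed to 2804, 2820 and 2809 CPM in the CTRB1 libraries and 3029, 3007 and 3026 CPM in the GFP libraries, a ratio of 0.931. Class A thus had the lowest ratio of summed CPM, 0.823, and class C the highest, with class B at 0.936. In TPM class A again had the lowest ratio (0.8), while class B (0.998) stood above class C (0.939). The differences between the classes were not tested.

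**Figure D2:**
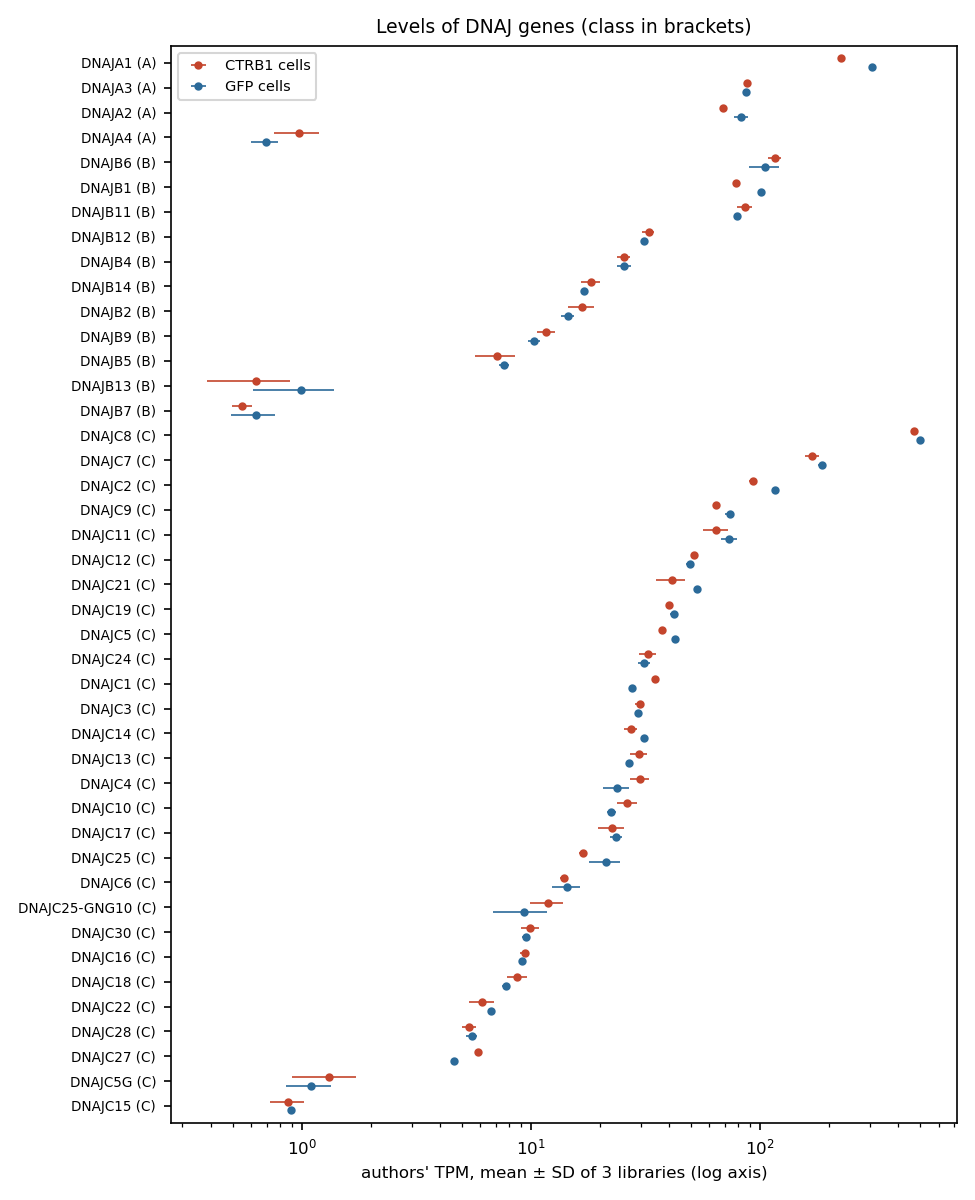
Points are the mean of the authors' TPM with SD over 3 libraries, on a log axis, for the 43 DNAJ genes with a mean of at least 0.5 TPM, the CTRB1 cells above the GFP cells in each row. DNAJC8 is the highest at 469 TPM in CTRB1 cells and 498 TPM in GFP cells, followed by DNAJA1 and DNAJC7, and the genes of class B reach 116 TPM.

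Levels per length, in TPM, were dominated by a few genes. DNAJC8 took 22.1% of the family's summed TPM in CTRB1 cells and 21.6% in GFP cells. DNAJA1 was second, at 224 ± 1.42 TPM in CTRB1 cells and 307 ± 1.45 TPM in GFP cells (SD, n = 3 each), or 10.6% of the sum in CTRB1 cells and 13.3% in GFP cells. DNAJC7 followed at 168 ± 12 TPM in CTRB1 cells and 186 ± 7.57 TPM in GFP cells. At the other end, the 7 genes that did not pass the filter were at most 1.31 TPM on average in either group. They were DNAJA4, DNAJC15, of mitochondria, DNAJC5B and DNAJC5G, relatives of DNAJC5, and the testis genes DNAJB7, DNAJB8 and DNAJB13, the last of sperm flagella and cilia. DNAJB8 was counted 2, 0 and 0 times in the CTRB1 libraries, against 0, 2 and 0 times in the GFP libraries, at or under a floor of 3 counts, which is 0.0188 to 0.109 CPM and covers counting error only. DNAJC5B was counted 0, 0 and 2 times in the CTRB1 libraries, against 3, 4 and 2 times in the GFP libraries. No difference was detectable for these 7 at this depth, with edgeR adjusted p of 0.236 to 0.914 in a fit without the filter.

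By place in the cell, the lists hold 3 to 11 tested genes each, and the differences between them were not tested. Over all genes tested 37.4% were called, 18.9% lower and 18.6% higher, and among genes of at least 20 TPM 27.4% were lower. Of 8 tested co-chaperones of general folding in cytosol and nucleus, 5 were lower (62.5%) and 0 higher, with a median log2 change of -0.148: DNAJA1, DNAJA2, DNAJB1, DNAJB6 and DNAJC7. Of 11 genes of the endoplasmic reticulum, 1 was higher, DNAJC1, and 2 were lower, DNAJC14 and DNAJC25, with a median of 0.071. The share called in it, 27.3%, is below that over all genes. In that list DNAJC3, an inhibitor of the kinase PERK, averaged 89.1 ± 3.56 CPM in CTRB1 cells and 86.6 ± 1.41 CPM in GFP cells (SD, n = 3 each; edgeR adjusted p = 0.344). DNAJC10, a disulfide reductase, averaged 193 ± 8.2 CPM in CTRB1 cells and 182 ± 3.24 CPM in GFP cells (SD, n = 3 each; edgeR adjusted p = 0.058), and its groups did not overlap. DNAJC18, with a log2 change of 0.19, did not overlap either (edgeR adjusted p = 0.0561). Of 4 tested mitochondrial genes, DNAJC11 was lower and 0 were higher, and of 3 tested genes of vesicles and endosomes 1 was higher, DNAJC13, and 1 lower, DNAJC5. All these lists were chosen with earlier results of these data known.

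**Figure D3:**
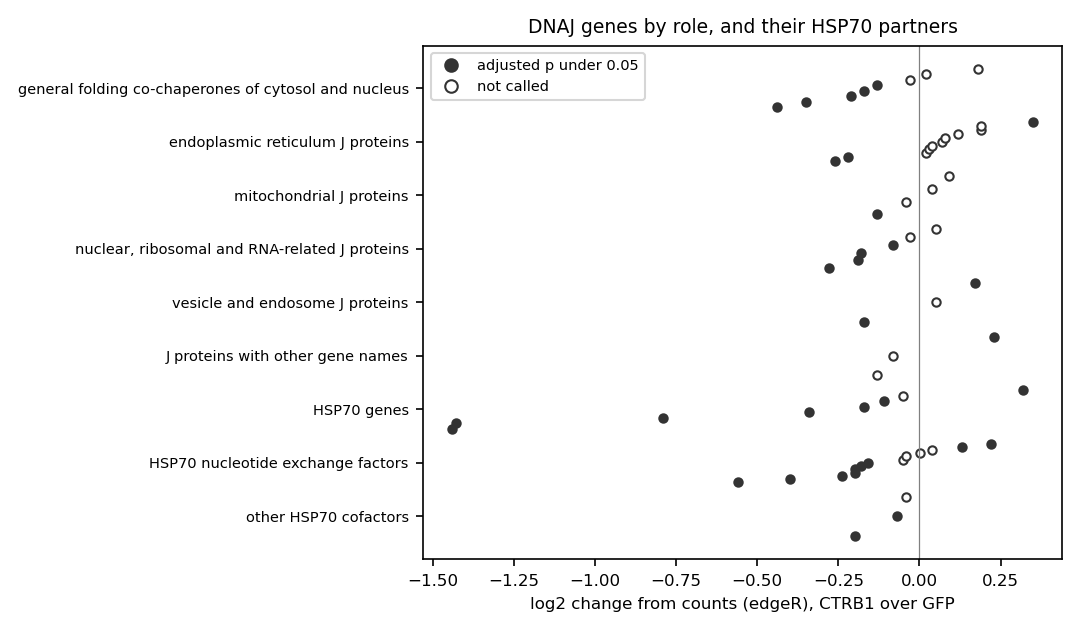
Each point is 1 gene that passed the filter, placed by its edgeR log2 change of CTRB1 cells over GFP cells, with lists of DNAJ genes by role in the upper 5 rows and J proteins of other names, HSP70 genes and HSP70 cofactors below; filled points have an adjusted p under 0.05. The filled points of general folding co-chaperones all lie below 0, and the 3 farthest left points of the plot are HSPA1A, HSPA1B and HSPA8.

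Log2 changes among the HSP70 genes that J proteins serve reached further below 0. Of 8 tested HSP70 genes 6 were lower and 1 higher, with a median log2 change of -0.254, where over all genes 18.9% were lower and 18.6% higher. The same shares stand beside the counts of the cofactor lists that follow. HSPA1A, HSPA1B and HSPA8 had log2 changes of -1.44, -1.43 and -0.79, and the reads of HSPA1A and HSPA1B, near-identical copies, may be divided arbitrarily. HSPA14, the partner of DNAJC2 at the ribosome, had a log2 change of -0.17 (edgeR adjusted p = 0.000956), and HSPA13, a microsomal HSP70, was higher by 0.32 on the log2 scale (edgeR adjusted p = 1.82e-05). Of 13 nucleotide exchange factors, which release ADP from HSP70, 7 were lower and 2 higher, among them HSPH1 (-0.56), HSPA4 (-0.40), BAG3 (-0.24) and GRPEL1 (-0.18). The 2 that were higher are GRPEL2 and SIL1, of mitochondria and endoplasmic reticulum (log2 changes 0.13 and 0.22; edgeR adjusted p = 0.00665 and 0.0249). HSPA5, the HSP70 of the endoplasmic reticulum that its luminal J proteins serve, was lower by a log2 change of -0.11 (edgeR adjusted p = 0.000679). HSPA5, HSPA14, GRPEL2 and SIL1 were named after their values were seen. Of 3 other cofactors STIP1 and ST13 were lower (-0.20 and -0.07). Among 3 J proteins with other gene names SEC63, of the translocon, was higher (0.23; edgeR adjusted p = 4.25e-05) and 0 were lower, while HSCB and GAK had edgeR adjusted p of 0.225 and 0.0567.

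Both DNAJ and cytosolic HSP70 transcripts summed to less in CTRB1 cells, HSP70 by more, so the proportion of DNAJ to HSP70 was higher there. The summed TPM of the DNAJ family was 2123 ± 26.8 in CTRB1 cells and 2307 ± 10.6 in GFP cells (SD, n = 3 each), a ratio of 0.92. In CPM the difference of the family sum was -210, and that of DNAJA1 alone was -100. Positive log2 changes were found in 20 of the 38 tested members, and negative ones in 18. The summed TPM of 7 cytosolic HSP70 genes was 1295 ± 21.3 in CTRB1 cells and 2653 ± 26.6 in GFP cells (SD, n = 3 each), a ratio of 0.488. Those 7 genes were HSPA1A, HSPA1B, HSPA1L, HSPA2, HSPA6, HSPA8 and HSPA14. DNAJA1 and DNAJB1 together had 23.4, 23.7 and 23.1 TPM per 100 TPM of cytosolic HSP70 in the CTRB1 libraries, against 15.4, 15.3 and 15.5 in the GFP libraries. The whole family had 164 ± 2.76 TPM per 100 TPM of cytosolic HSP70 in CTRB1 cells and 87 ± 0.568 in GFP cells (SD, n = 3 each). The groups do not overlap in either ratio, but both restate the lower HSP70 sum, since neither DNAJ sum was higher. Each is a proportion of transcripts and not of proteins.

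**Figure D4:**
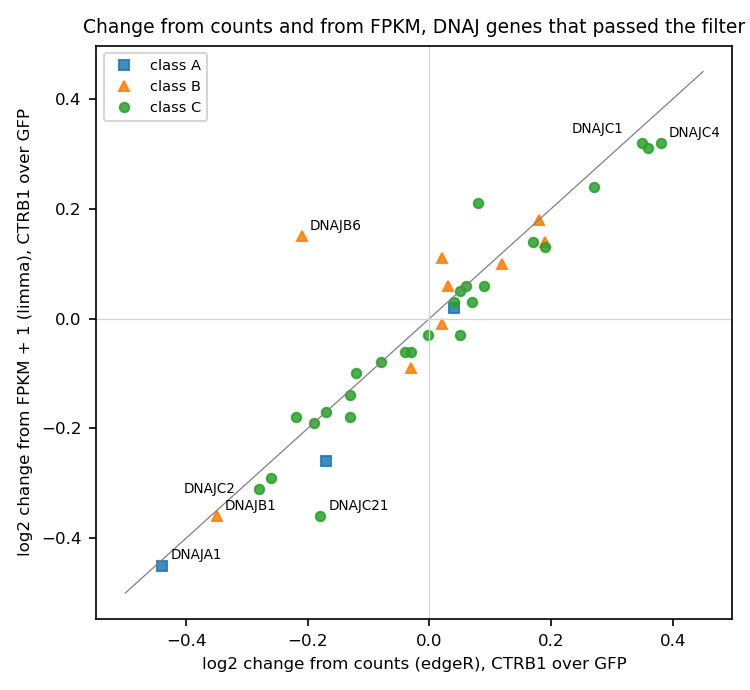
Each point is 1 of the 38 DNAJ genes, with its log2 change from counts by edgeR on the horizontal axis and from log2(FPKM + 1) by limma on the vertical axis, both CTRB1 over GFP; the line marks equality. DNAJB6 is the called gene with opposite signs, at -0.21 from counts and 0.15 from FPKM, and DNAJC21 lies below the line, at -0.18 and -0.36.

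On the FPKM scale the direction of change was the same for 12 of the 13 genes called lower and for all 4 called higher. There limma called 13 of the 38 members, against 26.7% of all genes, with 9 lower and 4 higher, against 16.2% and 10.5% of all genes. These 4 hold DNAJC10 (limma adjusted p = 0.0472) in place of DNAJC13 (0.11). The 9 lower lack DNAJB6, DNAJC7, DNAJC11 and DNAJC25. DNAJC21, with a log2 change of -0.18 from counts, had -0.36 from FPKM, and its counts per unit of FPKM spread 1.32-fold over the libraries. DNAJA1, DNAJB1, DNAJC2 and DNAJC1 spread at most 1.04-fold, and their log2 changes from FPKM were -0.45, -0.36, -0.31 and 0.32.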

How the data were processed

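RNA of 6 HEK 293FT libraries was sequenced as paired ends, per the labels. The deposited table holds read counts per gene that the authors did not normalize, and the authors' FPKM and TPM values, per the file headers. The log2 fold change and adjusted p-value columns are the authors' deposited comparison, positive where CTRB1 cells are higher, by a tool that is not stated. Per the submitters' processing notes, the tools included HTSeq 0.6.1, HISAT2 2.2.1 and cutadapt 1.9.1, with no roles, and the build was GRCm38.p5, of mouse, although the identifiers are human. All 20345 genes of the table are protein-coding.

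Counts were tested with edgeR 4.0.16 (R 4.3.3): TMM factors (0.9964 to 1.004), quasi-likelihood F test, no covariate, genes with FPKM of at least 1 in at least 3 libraries, Benjamini-Hochberg adjustment over 11961 genes, threshold 0.05. The SE is the log2 change over the square root of F. The fits were first tested on simulated counts. There edgeR called 13 of 50 genes changed 1.1-fold, 36 of 50 at 1.2-fold, 47 of 50 at 1.5-fold and 50 of 50 at 2.0-fold. It also made 18 false calls over 11961 genes. A member not called may thus still differ by a small amount. Alternatives were DESeq2 1.42.0, its size factors, other filters, a block for the replicate number, each library left out in turn, limma 3.58.1 on log2(FPKM + 1) and log2(FPKM + 0.1), and counts thinned to the shallowest library. A comparison of J domain sequences was planned and not run, since no protein sequences were used here. Full values are given for class A, for called members with a log2 change of at least 0.25 in size, and for up to 2 abundant uncalled members per class; other members are named with fewer values. Members and lists were chosen with earlier results of these data known. Promoters are RefSeq's, on GRCh38.p14, matched by symbol. A gene first placed in the list of J proteins with other names was taken out of it and is not reported here.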

Additional observations from a re-analysis of the deposited data

How the results depend on the processing

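Of the 17 called members, 9 kept their call and direction under all 14 alternatives: DNAJA1, DNAJA2, DNAJB1, DNAJC1, DNAJC2, DNAJC5, DNAJC9, DNAJC14 and DNAJC21. DNAJB6 alone among called members changed sign, to 0.15 with limma on log2(FPKM + 1) and 0.15 on log2(FPKM + 0.1); the cause was not tested. The limma fits also took the calls of DNAJC7, DNAJC11, DNAJC13 and DNAJC25, and gave 1 lower member of class B, 1250 higher genes over the whole table with either pseudocount, and medians of 0.007 for the family, -0.256 and -0.263 for class A, 0.095 and 0.105 for class B and -0.027 and -0.033 for class C. A mean FPKM of at least 5 gave medians of -0.018 for the family and -0.030 for class C, over fewer genes, and thinned counts 0.029 for class C. Leaving out 1 library gave 2 to 9 higher members of the family (2 without GFP replicate 2 or CTRB1 replicate 3, and 9 without CTRB1 replicate 2), 0 to 3 of class B and 2 to 6 of class C. Medians then ranged from 0.000 to 0.041 for the family, 0.006 to 0.059 for class B and -0.002 to 0.043 for class C. The sign of the medians of the family and of class C therefore depended on the settings.

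Replicate numbers did not pair the libraries: deviations of same-numbered libraries correlated at -0.084, -0.0144 and -0.09. With the replicate block 5 members were higher and 13 lower, DNAJC10 being added (edgeR adjusted p = 0.0313), and DNAJC28 turned to 0.00038. DNAJC10 also passed with DESeq2 (adjusted p = 0.0314), a mean FPKM of at least 5 (0.0266), without CTRB1 replicate 2 (0.0155) and with limma (0.0472 and 0.0471), and DNAJC18 passed with DESeq2 (0.0384) and without CTRB1 replicate 2 (0.018). Among uncalled members 8 changed sign, all near 0: DNAJB4 to -0.01 with limma (-0.01 at either pseudocount) and thinned counts (-0.01), DNAJC6 to -0.03 with limma (-0.03 at either pseudocount), and DNAJC28 to 0.07 with thinned counts. Leaving out 1 library gave -0.01 to 0.05 for DNAJB11, -0.13 to 0.06 for DNAJB5, -0.11 to 0.06 for DNAJC17, -0.0043 to 0.10 for DNAJC24, -0.05 to 0.03 for DNAJC28 and -0.00066 to 0.13 for DNAJC30. The planned comparison of J domain sequences was not run.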

Other observations

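The authors' deposited table gives an adjusted p under 0.05 for 18 members, 5 higher and 13 lower, which include all 17 called here. The extra one is DNAJC10, with a log2 fold change of 0.08 and an adjusted p of 0.0448 in the authors' deposited table. Both comparisons use the same 6 libraries, so they are not independent. The share of all genes under 0.05 in the authors' deposited table was not counted.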
